A study of Rattus norvegicus with 6 samples.

Results

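Phospholamban (Pln, gene ID 64672) and cardiac calsequestrin (Casq2, gene ID 29209) were measured in rat hearts after cardiopulmonary bypass (CPB), during which a machine circulates and oxygenates the blood, and in hearts of sham-operated controls. Members were the probes that the platform annotation assigns to either symbol in the deposited table. This gave 2 genes of the 1103 that the array names, and 2 of its 1185 probes (RA0512 for Pln and RA0769 for Casq2), so each gene rests on a single probe. Total RNA of the whole heart was used, with 3 CPB and 3 sham hearts and 1 array for each. The labels give no strain, age, sex, bypass time or sampling time, and do not say whether anaesthesia, cannulation or heparin were shared by the groups. They do not state that same-group hearts were processed independently, so p-values measure the spread between these samples.

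Each contraction of a heart muscle cell is driven by calcium released from the sarcoplasmic reticulum, and relaxation follows when the pump SERCA2a returns it. Pln is a small membrane protein that inhibits this pump, and its phosphorylation during beta-adrenergic stimulation relieves the inhibition. Casq2 is the acidic, calcium-binding protein of the lumen that buffers the store and tunes release through the ryanodine receptor. Both transcripts are abundant in cardiomyocytes.

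The regulatory sequence just before each gene's annotated start is shown because both genes are active in the same cells, and whether their probe levels followed each other from heart to heart depended on the scaling. Each run is the 250 bases before the start in the RefSeq annotation of rat build GRCr8, 5′ to 3′, on the plus strand for both genes, with the MEF2 element, each GATA match and the CCAAT box in capitals. Pln lies at chr20:33172244-33172493 and Casq2 at chr2:192214306-192214555.
Pln: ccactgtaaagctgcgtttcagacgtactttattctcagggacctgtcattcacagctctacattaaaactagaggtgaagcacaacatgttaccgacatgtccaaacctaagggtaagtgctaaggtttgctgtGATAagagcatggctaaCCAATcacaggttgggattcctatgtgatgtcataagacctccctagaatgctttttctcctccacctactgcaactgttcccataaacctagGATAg
Casq2: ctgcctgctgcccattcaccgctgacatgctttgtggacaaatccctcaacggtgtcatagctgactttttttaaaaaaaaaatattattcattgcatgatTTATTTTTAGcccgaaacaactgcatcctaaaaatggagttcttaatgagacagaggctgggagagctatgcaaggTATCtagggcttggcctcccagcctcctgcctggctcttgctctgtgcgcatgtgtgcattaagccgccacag
The motifs searched on both strands were the MEF2 element and the CArG box of muscle promoters, the GATA factor core GATA, the CCAAT box, the E-box CANNTG, the muscle element CATTCC, and, for a TATA box, TATAAA. The Casq2 window held 1 MEF2 element, 149 to 140 bases before the start, and 2.96% of 33469 rat promoter windows of this length hold one. It also held GATA on the opposite strand. The Pln window held GATA at 115 to 112 and at 5 to 2 bases before the start and CCAAT at 98 to 94. GATA occurs in 55.9% and CCAAT in 34.0% of the windows. CANNTG was present in both genes (65.5% of windows). The CArG box (1.5% of windows), CATTCC (12.1% of windows) and the TATA box (12.9% of windows) had no match in either window. These matches describe letters only and overlap no other motif searched.

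Both probes were bright in every heart. Ranked from the brightest of the 1185 probes, Pln held places 14, 13 and 13 on CPB replicates 1, 2 and 3, and 12, 11 and 10 on sham replicates 1, 2 and 3. Casq2 held places 48, 25 and 34 in the CPB hearts and 49, 30 and 62 in the sham hearts. Pln thus moved over 5 neighbouring places, with every CPB heart behind every sham heart, whereas the groups overlapped for Casq2. Quantile normalization, described below, sets values by rank, and 31 of 1185 probes (2.62%) then lay lower in every CPB heart. This order of Pln and its separation after that normalization are therefore the same result. A rank orders probe brightness on an array and not transcript number, since probes differ in how strongly they bind. The cardiomyocyte transcripts Myh6, the alpha myosin heavy chain, and Tnnt2, cardiac troponin T, both defining markers of heart muscle, were the brightest 2 probes on all 6 arrays.

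**Figure D1:**
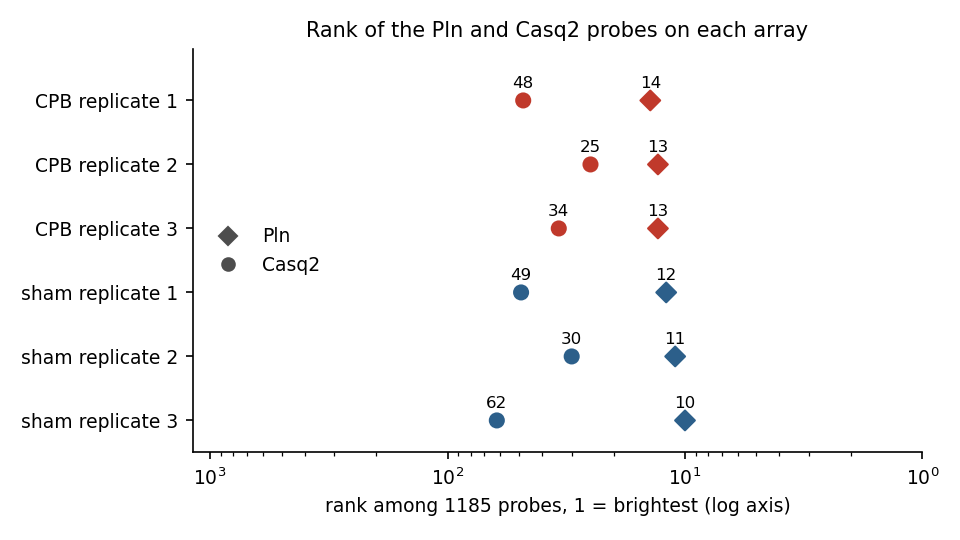
Rank of the Pln (diamonds) and Casq2 (circles) probes on each array, on a log axis on which 1 is the brightest of 1185 probes, with CPB hearts in red and sham hearts in blue. Pln stays between 10 and 14, while Casq2 runs from 25 to 62.

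The deposited values lie on a grid of whole steps above a lowest level on each array, and the distance from that level sets the precision. Pln lay 73 to 334 steps above it, and 1 step more would raise its log2 level by at most 0.019. Casq2 lay nearer to it, with 36, 170 and 29 steps in CPB hearts 1, 2 and 3, and 19, 96 and 13 steps in sham hearts 1, 2 and 3. One step was worth 0.096 on the log2 scale at its dimmest, in sham replicate 3. Both probes passed a filter on the lowest level, as did 498 of the 1185. Across arrays the lowest level took in 10.7% to 47.3% of probes, and the 2 arrays numbered 3 stood apart from the other 4 on the first principal component (scores of 7.99 and 11.28 against -6.23 to -3.50).

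Pln did not pass the test between CPB and sham hearts. As deposited, its log2 level was 14.54, 14.72 and 14.75 in CPB replicates 1, 2 and 3, and 14.50, 14.99 and 15.13 in sham replicates 1, 2 and 3. The sham hearts held both the lowest and the highest of these values, so the groups overlapped. After quantile normalization, which gives every array the same set of values by rank, the levels were 14.49, 14.61 and 14.61 in CPB and 14.68, 14.83 and 15.05 in sham hearts. All CPB values then lay below all sham values, a pattern found for 31 of 1185 probes (2.62%). The nearest CPB and sham hearts, at places 13 and 12, were parted by 0.071, the gap between neighbouring ranks. The CPB hearts averaged 14.57 ± 0.068 (SD, n = 3), against 14.85 ± 0.19 (SD, n = 3) for the sham hearts. CPB minus sham was -0.28 (SE 0.27, 95% interval -0.85 to 0.28; limma adjusted p = 0.909). With each array scaled to the same median, the difference was 0.19 (SE 0.56) and the groups overlapped, so the direction of the Pln difference depended on the scaling. Each array's median lay within a few steps of its lowest level, whereas Pln lay 73 to 334 steps above that level. Median scaling thus aligned the arrays near their lowest level and not at the brightness of Pln. Scaling moved the median difference over all probes from -0.29 as deposited to -0.029 (quantile) and 0.11 (median scaled). In whole-heart RNA, fewer cardiomyocytes and less transcript per cardiomyocyte cannot be told apart.

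Casq2 also missed the threshold, with a difference of the opposite sign. Its log2 level as deposited was 12.79, 13.76 and 13.25 in CPB replicates 1, 2 and 3, and 12.64, 13.55 and 12.35 in the sham replicates. Replicate 2 was the highest heart of both groups and the groups overlapped, also after quantile normalization (12.75, 13.67 and 13.24 in CPB, 12.70, 13.42 and 12.40 in sham). Between normalized hearts that share a replicate number, CPB minus sham was 0.048, 0.25 and 0.85 for numbers 1, 2 and 3, above 0 in all 3 pairs as on both other scales. Normalized Pln also kept 1 sign (-0.19, -0.22 and -0.44), but on both other scales its sign differed between pairs. The share of all probes with 1 sign in all 3 pairs was not counted. For Casq2, the CPB hearts averaged 13.22 ± 0.46 (SD, n = 3) after normalization, against 12.84 ± 0.52 (SD, n = 3) for the sham hearts. CPB minus sham was 0.38 (SE 0.33, 95% interval -0.32 to 1.09; limma adjusted p = 0.909). The difference was 0.42 as deposited and 0.82 (SE 0.63) after median scaling. Leaving out CPB replicate 2 or sham replicate 3 brought it to 0.16, leaving out CPB replicate 1 to 0.61, and leaving out sham replicate 2 to 0.67. It was 0.17 without both arrays numbered 3. Over all probes the limma fit called 0 of 1185 at an adjusted p of 0.05 (0%), and 35 (2.95%) had an unadjusted p under 0.05, neither member among them. As deposited, 1 probe (0.0844%) was called, that of the fibroblast marker Sparc (limma adjusted p = 0.0328), and again neither member.

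**Figure D2:**
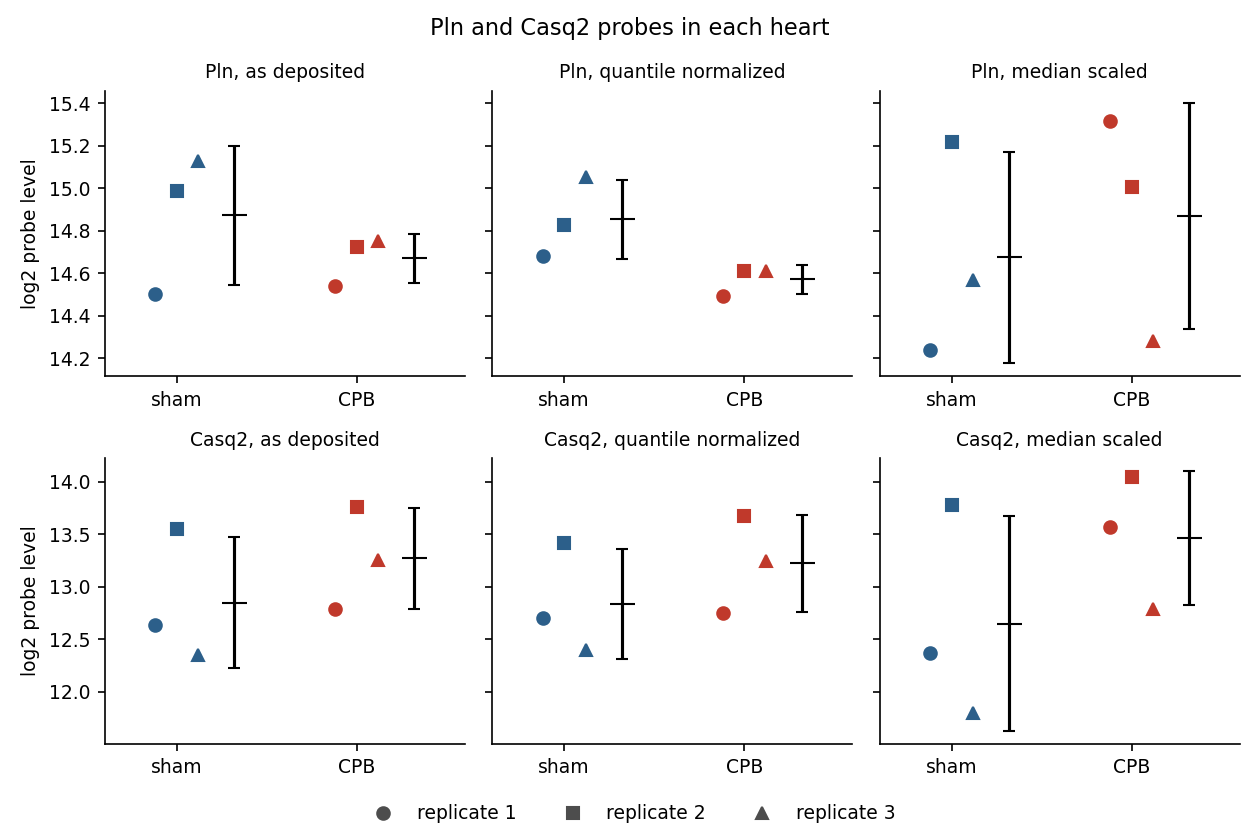
Log2 probe level of Pln (top) and Casq2 (bottom) in each sham (blue) and CPB (red) heart, as deposited, quantile normalized and median scaled; symbols mark the replicate number, and black bars give the mean and SD of 3 hearts. Pln is parted between groups only after quantile normalization (at most 14.61 in CPB and at least 14.68 in sham hearts), and its difference turns from -0.28 to 0.19 after median scaling; Casq2 overlaps in all 3 panels.

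The probes differed in how much they varied between hearts. Over the 6 hearts the normalized log2 level of Pln had an SD of 0.20 and a range of 0.56, and that of Casq2 an SD of 0.49 and a range of 1.28. Among the brightest 100 probes, 8% had a smaller SD than Pln and 77% a smaller SD than Casq2. The SDs were 0.25 and 0.55 as deposited and 0.47 and 0.88 after median scaling, larger for Casq2 on each scale. Across the 6 hearts the levels of both probes had a Pearson r of -0.38 (Spearman rho -0.38) after quantile normalization, -0.013 (rho -0.029) as deposited and 0.76 (rho 0.60) after median scaling. Any factor shared by the probes of an array enters these correlations, which are descriptions over 6 arrays.

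Dividing one probe by the other on the same array removes any factor the array shares. The size of this ratio depends on the probes, so only its change between hearts can be read. The Pln probe was 3.36, 1.95 and 2.82 times as bright as the Casq2 probe in CPB replicates 1, 2 and 3, and 3.65, 2.71 and 6.84 times in sham replicates 1, 2 and 3. Sham replicate 3 held the highest ratio, from the brightest Pln and the dimmest Casq2 level of any heart as deposited, and CPB replicate 2 the lowest. The groups overlapped, since sham replicate 2 lay below CPB replicates 1 and 3. The log2 ratio averaged 1.40 ± 0.40 (SD, n = 3) after CPB, against 2.03 ± 0.68 (SD, n = 3) after sham surgery. The difference was -0.62 (two-sided exact permutation test, p = 0.3, where 3 against 3 cannot go below 0.1). It kept its sign in all 10 alternatives, and was -0.25 without sham replicate 3, -0.40 without CPB replicate 2 and -0.30 without both arrays numbered 3. Among these alternatives, the replicate block leaves the difference unchanged by construction.

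Set against the median of 5 measured cardiomyocyte markers on the same array, neither member parted the groups, while against their mean Pln did. The markers were Myh6, Tnnt2, the cardiac troponin I gene Tnni3, the tropomyosin Tpm1 and muscle creatine kinase Ckm. The Tpm1 probe lay only 0 to 4 steps above the lowest level and was at it in 1 sham heart, which limits the mean of the markers. The median was the Ckm probe on 4 arrays and the Tnni3 probe on CPB replicates 2 and 3, so this ratio sets different probes against each other across hearts. On the log2 scale, Pln relative to it was -1.78, -1.33 and -0.70 in CPB replicates 1, 2 and 3, and -1.23, -1.12 and -0.82 in the sham replicates. CPB hearts held both extremes, and the groups differed by -0.22 (exact permutation p = 0.6; 0.040 without CPB replicate 1). Casq2 relative to it was -3.53, -2.29 and -2.20 in CPB and -3.10, -2.56 and -3.59 in sham hearts. The groups differed by 0.41 (exact permutation p = 0.5), and by -0.085 without both arrays numbered 3. Against the mean log2 level of the same 5 markers, Pln was -0.77, -0.59 and -0.61 in CPB replicates 1, 2 and 3, and -0.41, -0.45 and -0.12 in the sham replicates. Every CPB heart lay below every sham heart, by -0.33 on average (exact permutation p = 0.1, the smallest possible), as for 3.22% of probes outside the list. Casq2 differed by 0.30 against this mean (exact permutation p = 0.5), with overlapping groups.

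**Figure D3:**
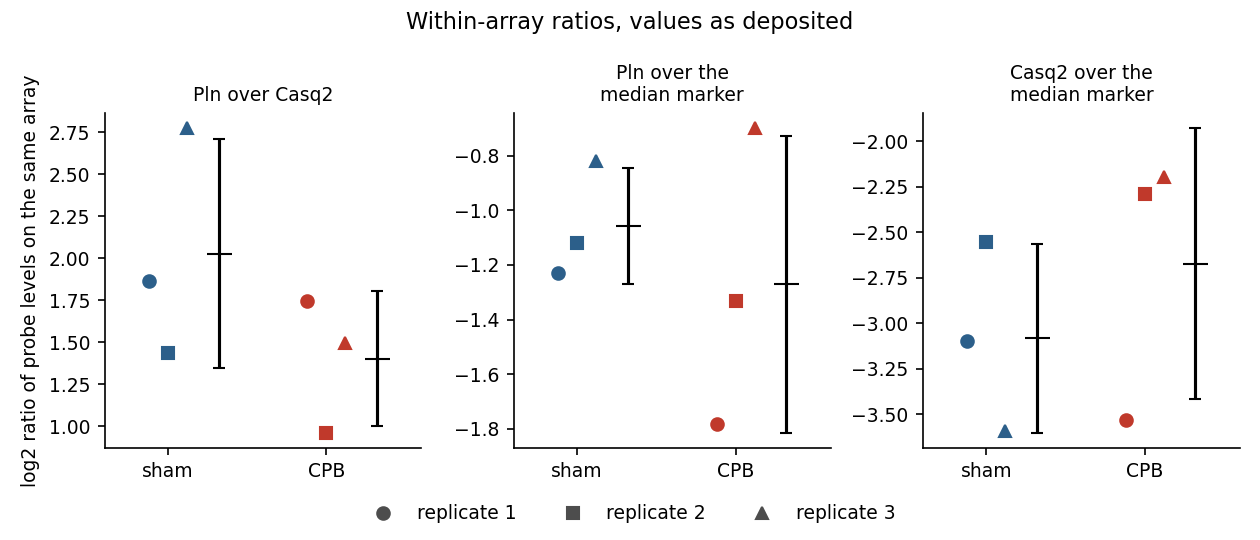
Log2 ratio of probe levels on the same array in each sham (blue) and CPB (red) heart: Pln over Casq2, Pln over the median cardiomyocyte marker and Casq2 over that median; symbols mark the replicate number, and black bars give the mean and SD of 3 hearts. In all 3 panels the groups overlap, and Pln over Casq2 is highest in sham replicate 3 (2.77) and lowest in CPB replicate 2 (0.96).

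Against single markers, chosen for display after the data were seen, the choice of marker set the outcome. Relative to Myh6, Pln was -3.24, -3.11 and -3.58 in CPB replicates 1, 2 and 3, and -2.73, -3.03 and -2.68 in the sham replicates on the log2 scale. All CPB hearts lay below all sham hearts, by -0.49 on average (exact permutation p = 0.1, the smallest possible, and 0.5 after Benjamini-Hochberg adjustment over the 10 ratios formed from 2 members and 5 markers). The same held relative to Tnnt2, with a difference of -0.57 (exact permutation p = 0.1, adjusted 0.5), which was -0.33 without sham replicate 3 and -0.38 without both arrays numbered 3. Relative to Myh6 it was -0.29 without those 2 arrays. This separation was common, since 8.45% of all other probes lay lower in every CPB heart relative to Myh6 and 14.1% relative to Tnnt2. The Pln difference was -0.62 relative to Tnni3 (-0.41 without sham replicate 3), 0.087 relative to Ckm and -0.037 relative to the dim Tpm1 probe, with overlapping groups. Casq2 differed by 0.13, 0.050 and 0.0014 relative to Myh6, Tnnt2 and Tnni3, by 0.59 relative to Tpm1 and by 0.71 relative to Ckm, with overlapping groups in each. Without 1 array the Casq2 difference ran from 0.079 (sham replicate 3) to 0.92 (sham replicate 2) relative to Tpm1, and from 0.31 (CPB replicate 2) to 1.29 (CPB replicate 1) relative to Ckm.

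Genes of calcium handling and its signalling were taken from 4 lists, which include both members. Of 29 sarcoplasmic reticulum genes 3 were measured, the third being S100a1, a calcium sensor that binds the pump and the release channel. S100a1 sat at the lowest level in 2 CPB hearts and 1 sham heart, with a log2 difference of -0.20 (SE 0.21). The pump gene Atp2a2 and the release channel gene Ryr2 were not analysed here. Of 23 genes of calcium entry and extrusion 3 were measured. Slc8a1, the sodium-calcium exchanger that removes calcium from the cell, differed by -0.32 (SE 0.32; 0.030 after median scaling). Its normalized log2 level was 10.50, 11.35 and 11.32 in CPB and 11.54, 11.46 and 11.13 in sham hearts, so CPB replicate 1 was low and the groups overlapped. The channel subunit Cacna1s and the pump Atp2b3 differed by -0.22 (SE 0.32) and -0.18 (SE 0.16), with 2 and 4 of their 6 arrays at the lowest level.

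Protein phosphatase 1, which removes the phosphate from Pln and so restores its hold on the pump, was measured through 3 catalytic subunits. Their log2 differences were -0.0094 (SE 0.29) for Ppp1ca, 0.072 (SE 0.30) for Ppp1cb and 0.13 (SE 0.31) for Ppp1cc. The Ppp1cb probe gave 13.26, 13.82 and 13.35 in CPB and 13.84, 13.35 and 13.02 in sham hearts, with overlapping groups. Ppp1r1a, inhibitor 1 of this phosphatase, differed by -0.17 (SE 0.34; 0.018 after median scaling) and lay only 1 to 7 steps above the lowest level. After median scaling Ppp1ca, Ppp1cb and Ppp1cc differed by 0.34, 0.49 and 0.49, beside a median of 0.11 over all probes. Camkk2, a kinase that activates calmodulin-dependent kinases, differed by -0.32 (SE 0.17), with 3 of 6 arrays at the lowest level.

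In the beta-adrenergic and cAMP list, which leads to the kinase that phosphorylates Pln, 2 of 35 genes were measured and both were near the lowest level. Akap5, an anchor of that kinase, was at it on all 3 CPB arrays and 1 sham array, so no fold is given; it is counted among the lower genes. Pde2a, a phosphodiesterase, was at it on 2 arrays of each group. Over the 4 lists 13 genes were measured, of which 3 were higher and 10 lower, with a median difference of -0.18. All 1185 probes gave 501 higher, 622 lower and a median of -0.029. Among the lower genes, S100a1, Cacna1s, Atp2b3, Camkk2, Pde2a and Akap5 were at the lowest level on some arrays, and Atp2b3 gave the median. Of the genes above it on every array, Pln, Slc8a1, Ppp1ca and Ppp1r1a were lower and Casq2, Ppp1cb and Ppp1cc higher. None of the 13 passed the threshold (smallest limma adjusted p = 0.909) or had an unadjusted p under 0.05 (2.95% of all probes). After median scaling 7 of the 13 were higher and 6 lower, beside 726 higher and 456 lower of all probes. As deposited 10 of the 13 (76.9%) were again lower, beside 77.3% of all probes, against 52.5% of all probes after quantile normalization. Without both arrays numbered 3, 11 of the 13 were lower, beside 47.6% of all probes. What set this balance was not tested.

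**Figure D4:**
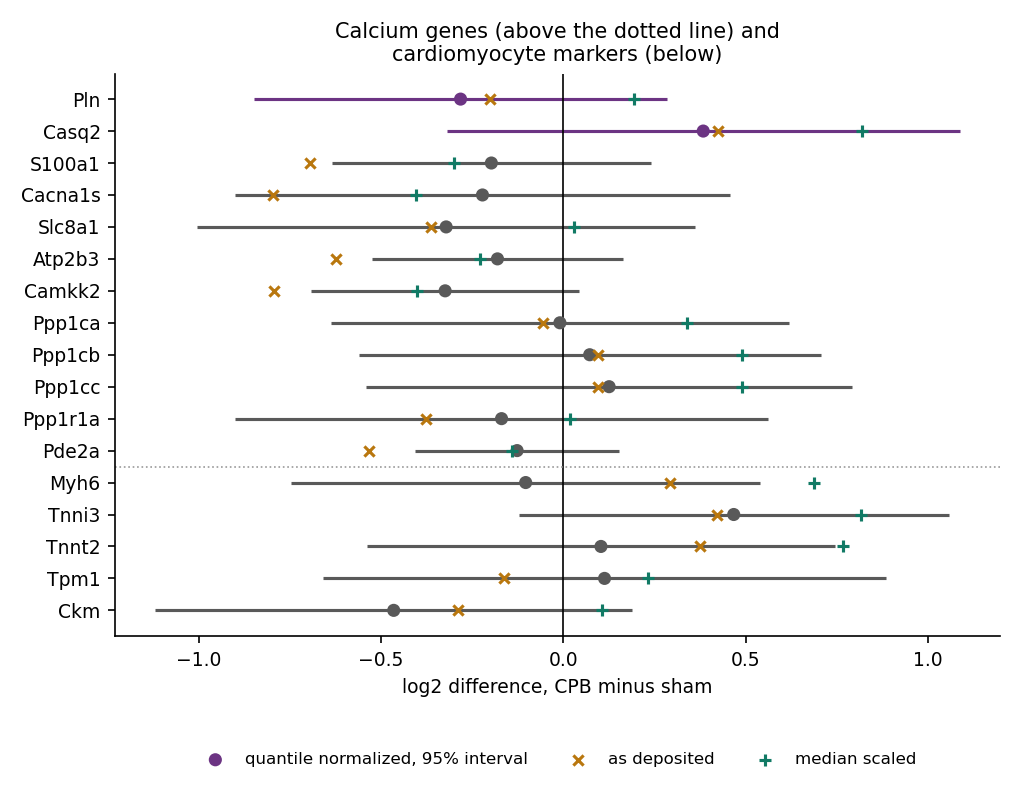
Log2 difference (CPB minus sham) of 12 measured calcium genes (all but Akap5), above the dotted line, and 5 cardiomyocyte markers, below it; circles with lines give the quantile-normalized difference and its 95% interval, crosses the values as deposited and plus signs those after median scaling. Each interval includes 0, Pln (-0.28) changes sign after median scaling (0.19) and Casq2 (0.38) does not. Myh6 (-0.10) and Tnnt2 (0.10) hold ranks 1 and 2 on every array, so their normalized differences mirror each other by construction.

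Among the cardiomyocyte markers, quantile-normalized differences ran from -0.47 (SE 0.31) for Ckm to 0.47 (SE 0.28) for Tnni3. Tnni3 was higher in every CPB heart than in any sham heart (15.83, 15.96 and 15.96 against 15.45, 15.69 and 15.21), as were 1.6% of all probes. As deposited, Casq2 (0.42) lay next to Tnni3 (0.42) and Tnnt2 (0.37), and Pln (-0.20) lay between Tpm1 (-0.16) and Ckm (-0.29). Of the fibroblast markers, Sparc and Dcn were measured, 2 of 9. The log2 of their summed linear levels was 13.47 to 14.42 in CPB and 14.95 to 15.15 in sham hearts, lower in CPB like normalized Pln. As deposited, Sparc was the 1 probe called (-1.40, limma adjusted p = 0.0328). After quantile normalization it did not pass (-1.50, SE 0.33, limma adjusted p = 0.371). Its CPB values all lay below its sham values, as for 2.62% of all probes, while Dcn (-0.51, SE 0.44) overlapped between groups. The part of Sparc and Dcn in the Pln difference was not tested. Summed levels overlapped between groups for smooth muscle (2 of 7 markers), leukocytes (5 of 11) and skeletal muscle (2 of 16, both at the lowest level on 1 array of each group). Markers of atrial, endothelial and erythroid cells were not analysed here.

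The genes whose normalized levels ran most like each member over the 6 arrays were found among 468 other named probes above the lowest level on every array. For Pln these were Stc1, a secreted glycoprotein (Pearson r 0.96), P2ry14, a receptor for UDP-sugars (0.94), the laminin chain Lamb2 (0.94) and the kinase Snrk (0.93). The same r values were 0.80, 0.60, 0.65 and 0.50 as deposited, and 0.093, -0.15, 0.60 and -0.19 after median scaling. Stc1, P2ry14 and Snrk lay 1 step above the lowest level on their dimmest array. For Casq2 they were the ribosomal protein Rps7 (0.94), the splicing factor Tra2b (0.92), the AMP-activated kinase subunit Prkag1 (0.91) and the histone variant H2az1 (0.87). These were 0.93, 0.96, 0.94 and 0.96 after median scaling, and 0.84, 0.90, 0.84 and 0.56 as deposited. H2az1 also lay 1 step above the lowest level on its dimmest array. With 6 arrays, r exceeded 0.8 for 12 of the 468 probes with Pln and for 13 with Casq2, and these values are descriptions.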

How the data were processed

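Samples were grouped and numbered from their titles. The deposited values are inverse hyperbolic sines of linear levels, close to a natural log at this size, as judged from the numbers themselves. How the authors labelled, background-corrected or normalized the arrays is not given in the sources used here. Within an array, the hyperbolic sine of the values formed evenly spaced steps (80.1 to 359.6 linear units, to within 9.25e-06 of a step), so the number of steps above an array's lowest level is whole. Linear levels (2 times the hyperbolic sine) were quantile normalized, and their log2 was taken without a pseudocount. All 1185 probes entered 1 fit (limma 3.58.1, R 4.3.3; lmFit, then eBayes using a variance trend), with two-sided p-values, Benjamini-Hochberg adjustment and a threshold of 0.05. The fit was run on simulated normal log2 values with known changes among the brighter probes. These had no lowest level and no grid of steps, so the run does not test the fit near the lowest level. Ratios used values as deposited, with exact permutation tests over hearts. The number of arrays limits the precision.

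Symbols came from the platform annotation, updated by gene ID through RefSeq (1106 of 1113 matched). The members, lists and tests were chosen with earlier results of these data known. Genes named were the members, measured genes of the calcium and cardiomyocyte lists, and the 4 most correlated named genes for each member; Sparc and Dcn were added beside Pln with their values known. Both groups use the numbers 1 to 3: deviations from group means correlated at 0.240, 0.277 and 0.296 for numbers 1, 2 and 3 after quantile normalization (0.0584, 0.300 and 0.442 as deposited), so the numbers may pair the samples, from the data alone. The reported fit ignores this. Alternatives were a replicate block, other scalings, a pseudocount, a filter on the lowest level, no variance trend and leaving out arrays.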

Additional observations from a re-analysis of the deposited data

How the results depend on the processing

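Pln kept its direction and side of the threshold in 13 of 14 alternatives (limma adjusted p from 0.724 to 0.995) and reversed after median scaling (0.19); without 1 array it ran from -0.39 to -0.19. Casq2 kept both in all 14 (limma adjusted p from 0.724 to 1) and ran from 0.16 to 0.67 without 1 array. The replicate block, the filter on the lowest level and the fit with no variance trend cannot change a difference, only its p-value. The ratio of Pln to Casq2 ran from -0.92 to -0.25 without 1 array. Relative to the median marker, Pln ran from -0.50 to 0.040 without 1 array, reversing without CPB replicate 1, and it was -0.33 against the mean of the markers. Casq2 ran from 0.15 to 0.84, and reversed without both arrays numbered 3 (-0.085). The count of probes called was 1 as deposited, 0 to 1 without 1 array, and 0 otherwise. Of the 13 calcium genes 6 were lower after median scaling, against 10, while over all probes 456 were lower, against 622. The causes were not tested.

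With the replicate number as a block, the differences were the same by construction, -0.28 for Pln and 0.38 for Casq2 (limma adjusted p = 0.724 for both), and no call changed. The log2 ratio of Pln to Casq2 differed by -0.12, -0.48 and -1.28 between the CPB and sham hearts numbered 1, 2 and 3, a mean of -0.62 (exact sign-flip permutation p = 0.25, the smallest that 3 pairs allow). The same exact permutation test gave p = 0.5 for Pln (-0.22) and p = 0.75 for Casq2 (0.41) relative to the median marker. Leaving out both arrays numbered 3, the ratios to single markers and the other scalings of the calcium lists were chosen after seeing the data.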
